A study of Mus musculus with 9 samples.

Results

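Semaphorins are secreted or membrane-bound guidance proteins, and plexins are the receptors through which they act. Here 10 of their genes, 5 semaphorins (Sema3a, Sema3e, Sema3f, Sema3g, and Sema6a) and 5 plexins (Plxna1, Plxna2, Plxna4, Plxnb1, and Plxnd1), were read in 9 mouse retinas by bulk RNA-Seq. They were chosen by name from the 54532 genes of the count table, in which each had 1 row, and all 10 were abundant enough to be tested. The mice were wild-type C57BL/6 animals, 3 in each of 3 groups, and retinal RNA was taken at P17. Control mice were kept in room air, and their labels add DMSO. OIR mice went through oxygen-induced retinopathy, in which a stay in high oxygen destroys vessels of the posterior retina and the return to room air at P12 leaves the retina hypoxic. They received an intraocular injection of DMSO, the vehicle, at P12. Treated OIR mice went through the same model and received 32-134D at P12, a small molecule that inhibits HIF-1 and HIF-2, the transcription factors of the response to low oxygen. The treatment label gives 70 ng, whereas the study's text gives 70 ng per μL. Mice are named by the numbers in their labels, which are 1, 6, and 7 in control, 3, 5, and 6 in OIR, and 2, 5, and 10 in treated OIR.

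Plexins relay semaphorin signals to the cytoskeleton and to integrin adhesion, and in most settings the signal is repulsive, steering axons and vessel sprouts away from the source. Class 3 semaphorins are secreted. Most of them reach plexins through the neuropilins Nrp1 and Nrp2, whereas Sema3e binds Plxnd1, a receptor of endothelial cells, without a neuropilin. Sema6a is a transmembrane ligand of Plxna2 and Plxna4 in the wiring of the inner retina. In the OIR model, abnormal vessels grow from the retina toward the vitreous, and neuron-derived class 3 semaphorins are known as guidance cues for retinal vessels.

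Among the 10 genes, 3 receptors, Plxnd1, Plxna2, and Plxnb1, had higher values in every OIR mouse and every treated OIR mouse than in any control mouse. Sema3a, Plxna1, and Sema6a had lower values in every OIR mouse than in any control mouse, and in treated OIR mice these 3 genes spread from OIR values, or below them, to the control range. No gene of the 10 passed an adjusted p below 0.05 in the quasi-likelihood test of edgeR, fitted to all 9 mice, in any of the 3 comparisons. An unadjusted p below 0.05 was reached by 5 of the 10 between OIR and control mice, beside 23.8% of all genes tested. Between treated OIR and control mice 3 reached it (18.6% of all genes), and between treated OIR and OIR mice 1 did (4.69%). Of all genes, 33.0% did not overlap between OIR and control mice and 25.0% between treated OIR and control mice.

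The promoters of the receptors that were higher, and of Sema3a, are shown because HIF binds the core sequences ACGTG and GCGTG. Each window is 300 bases of RefSeq sequence on GRCm38.p6, from 250 bases before to 50 after the annotated start, and is written on the strand of the gene. Both core sequences were searched on both strands (as CACGT and CACGC on the other), and matches are in capitals. Of the 10 genes, 6 had an entry in the promoter table (Sema3a, Sema3e, Sema3g, Plxna2, Plxnb1, and Plxnd1). The windows are chr6:115994956-115995255 (minus strand) for Plxnd1, chr1:194619579-194619878 (plus) for Plxna2, chr9:109095186-109095485 (plus) for Plxnb1, and chr5:13396534-13396833 (plus) for Sema3a, and those of Plxna2 and Sema3a lie inside the annotated gene, which begins further upstream.
Plxnd1: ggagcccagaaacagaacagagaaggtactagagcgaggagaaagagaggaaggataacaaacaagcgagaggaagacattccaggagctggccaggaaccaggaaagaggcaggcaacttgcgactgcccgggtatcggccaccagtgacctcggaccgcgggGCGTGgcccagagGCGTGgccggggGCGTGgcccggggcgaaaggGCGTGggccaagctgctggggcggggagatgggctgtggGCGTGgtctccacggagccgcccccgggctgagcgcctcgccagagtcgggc
Plxna2: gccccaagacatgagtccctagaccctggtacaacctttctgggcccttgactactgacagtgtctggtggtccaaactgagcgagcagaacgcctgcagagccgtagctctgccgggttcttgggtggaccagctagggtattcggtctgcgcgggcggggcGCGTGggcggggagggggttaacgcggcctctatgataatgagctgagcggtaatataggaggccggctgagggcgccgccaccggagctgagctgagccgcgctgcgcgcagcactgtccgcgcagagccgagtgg
Plxnb1: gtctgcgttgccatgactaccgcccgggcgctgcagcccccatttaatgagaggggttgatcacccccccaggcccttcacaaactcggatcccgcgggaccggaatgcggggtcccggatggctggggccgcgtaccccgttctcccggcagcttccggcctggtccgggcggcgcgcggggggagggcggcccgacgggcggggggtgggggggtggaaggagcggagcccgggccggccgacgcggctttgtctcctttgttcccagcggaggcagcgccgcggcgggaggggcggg
Sema3a: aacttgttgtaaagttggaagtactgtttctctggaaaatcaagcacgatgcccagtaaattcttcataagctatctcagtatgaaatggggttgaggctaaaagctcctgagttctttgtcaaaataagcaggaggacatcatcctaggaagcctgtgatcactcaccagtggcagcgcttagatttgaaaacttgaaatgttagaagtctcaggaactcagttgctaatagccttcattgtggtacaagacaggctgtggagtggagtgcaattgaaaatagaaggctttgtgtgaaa

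The Plxnd1 window held 5 matches to GCGTG, the Plxna2 window held 1, and the windows of Plxnb1 and Sema3a held 0 of either sequence. Of the windows not shown, that of Sema3e held 2 matches to ACGTG, which overlap as CACGTG read on both strands, and that of Sema3g held 0 of either. Of 32851 promoter windows of this length, 32.4% held GCGTG at least once, 19.6% held ACGTG, and 43.8% held either. At least 5 matches to GCGTG were found in 0.463% of them, a count looked up after the Plxnd1 window had been read. A match is a string of letters and was not tested for binding.

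Total counts ranged from 16028731 to 27213184 per mouse, and counts for the 10 genes ranged from 15 (Sema3g in OIR mouse 6) to 5486 (Sema3f in control mouse 1). Values are given as CPM (counts scaled to a library of 1000000) after TMM normalization, and fold changes as log2 values from the edgeR fit. Treated OIR mouse 2 stood apart, with 15.8% of its counts in crystallin genes of the lens against at most 0.186% in any other mouse, and the values of the treated OIR comparisons without it are given together after the counts of genes. Retinal marker genes were detected in every group. Bulk RNA cannot tell apart fewer cells of a type and less RNA per cell.

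Plxnd1 (ENSMUSG00000030123, GRCm38 chromosome 6, 115954811 to 115995005, minus strand) encodes the receptor for Sema3e. It had 41.8, 27.3, and 17.9 CPM in control mice 1, 6, and 7, and 59.9, 58.5, and 70.9 CPM in OIR mice 3, 5, and 6. Mice 2, 5, and 10 of the treated OIR group had 69.7, 68.0, and 61.6 CPM. The control mice were spread widely and all lay below the 6 mice of the other groups, which overlapped one another. Plxnd1 had a log2 fold change of 1.11 in OIR compared with control mice (95% interval 0.54 to 1.69, edgeR adjusted p = 0.0637), a ratio of 2.17. Against the same control mice, treated OIR mice had 1.19 (0.62 to 1.76, edgeR adjusted p = 0.108). Treated OIR and OIR mice differed by 0.07, with an interval from -0.49 to 0.64. The control spread weighed on the size, since the value in OIR mice was 1.48 without control mouse 1 and 0.87 without control mouse 7.

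Plxna2 (ENSMUSG00000026640, chromosome 1, 194618218 to 194816869, plus strand), a receptor for Sema6a and, with neuropilins, for class 3 semaphorins, had 100.3, 99.5, and 88.0 CPM in control mice and 131, 133, and 134 CPM in OIR mice, which lay close together. Treated OIR mice had 158, 121, and 125 CPM, so the groups on either side of the control comparison did not overlap. As a log2 fold change this was 0.47 in OIR compared with control mice (0.21 to 0.73, edgeR adjusted p = 0.0707) and 0.49 in treated OIR compared with control mice (0.23 to 0.75, edgeR adjusted p = 0.115). Treated OIR and OIR mice differed by 0.02 (-0.24 to 0.28).

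Plxnb1 (ENSMUSG00000053646, chromosome 9, 109095389 to 109119917, plus strand), the receptor for Sema4d, had 81.4, 101.7, and 78.2 CPM in control mice. The OIR mice had 112, 151, and 128 CPM, and the treated OIR mice had 118, 112, and 107 CPM. Every OIR and treated OIR mouse was above the highest control mouse, treated OIR mouse 10 by the least. Its log2 fold change was 0.58 in OIR compared with control mice (0.27 to 0.89, edgeR adjusted p = 0.0676) and 0.37 in treated OIR compared with control mice (0.06 to 0.68, edgeR adjusted p = 0.220). For treated OIR compared with OIR mice it was -0.22 (-0.52 to 0.09). Plxnb1 overlaps the antisense gene Gm7628, which had 283 counts over all mice against 19551 for Plxnb1, and whether counting used strand is not given in the sources used here.

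**Figure D1:**
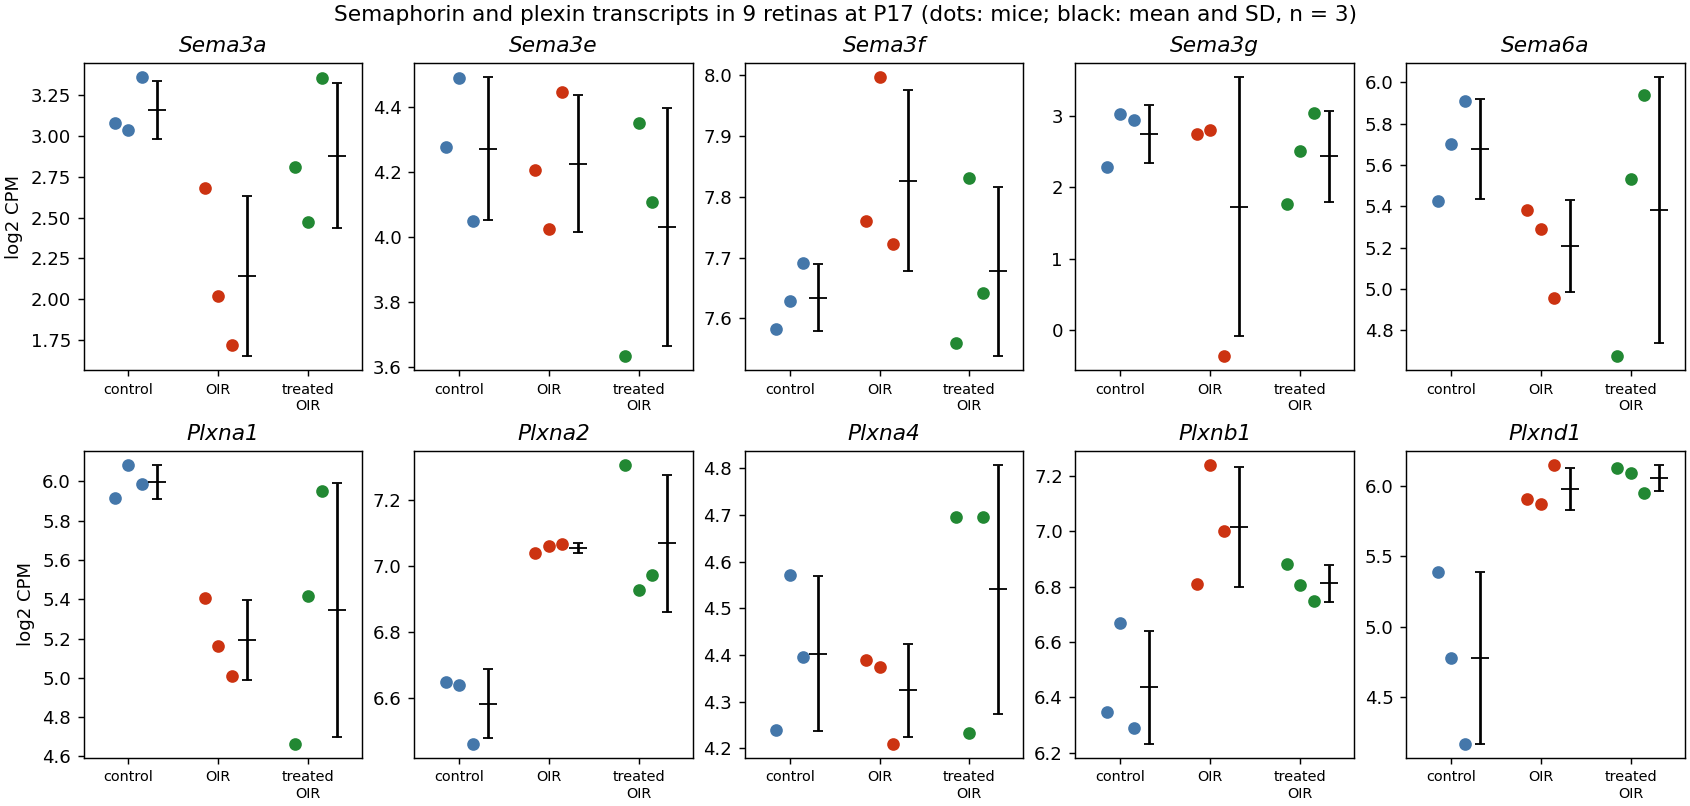
Level of each of the 10 genes as log2 CPM (y axis, a separate range per panel) in control, OIR, and treated OIR mice (x axis), with 1 dot per mouse in the order of the mouse numbers and the mean and SD in black (n = 3). Plxna2, Plxnb1, and Plxnd1 lie above the controls in both OIR groups, and 1 OIR mouse lies far below the others for Sema3g.

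Plxna1 (ENSMUSG00000030084, chromosome 6, 89316314 to 89362620, minus strand), a signalling receptor that pairs with neuropilins for class 3 semaphorins, lay on the other side of the controls from Plxnd1, Plxna2, and Plxnb1. It had 60.2, 67.8, and 63.4 CPM in control mice and 42.3, 35.7, and 32.1 CPM in OIR mice, with no overlap. The treated OIR mice had 25.2, 42.6, and 61.8 CPM, so that mouse 2 was below every OIR mouse and mouse 10 was within the control range. Plxna1 had a log2 fold change of -0.80 in OIR compared with control mice (-1.40 to -0.19, edgeR adjusted p = 0.125). It was -0.56 in treated OIR compared with control mice (-1.16 to 0.04) and 0.24 in treated OIR compared with OIR mice (-0.37 to 0.84). Without treated OIR mouse 2 these last 2 values were -0.28 and 0.54, and without treated OIR mouse 10 they were -0.91 and -0.11, so the direction between treated OIR and OIR mice depended on single mice.

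Plxna4 (ENSMUSG00000029765, chromosome 6, 32144268 to 32588192, minus strand), which shares Sema6a as a ligand with Plxna2, had overlapping values in all groups. They ranged from 18.8 to 23.7 CPM in control, 18.4 to 20.9 CPM in OIR, and 18.7 to 25.8 CPM in treated OIR mice. Its log2 fold change was -0.08 in OIR compared with control mice (-0.44 to 0.28) and 0.15 in treated OIR compared with control mice (-0.21 to 0.51). Antisense genes are annotated across it, of which Plxna4os1 had 52 counts over all mice.

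Of the ligands, Sema3a (ENSMUSG00000028883, chromosome 5, 13125414 to 13602565, plus strand), a secreted repellent that signals through Nrp1 and A-type plexins, had the lowest level per gene length of the 10. It had 8.35, 8.12, and 10.2 CPM in control mice and 6.31, 3.96, and 3.19 CPM in OIR mice. The treated OIR mice had 6.91, 5.46, and 10.1 CPM, which reached from the OIR range to that of the controls. OIR compared with control mice gave a log2 fold change of -0.99 for Sema3a (-1.69 to -0.28, edgeR adjusted p = 0.115), a ratio of 0.505. For treated OIR compared with control mice it was -0.24 (-0.94 to 0.46).

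Sema3a was the 1 gene of the 10 with an unadjusted p below 0.05 between treated OIR and OIR mice, at a log2 fold change of 0.74 (0.04 to 1.45, edgeR adjusted p = 0.9998). Between these groups 4.69% of 17540 genes reached that unadjusted p, 2.39% in the direction of Sema3a. The value was 0.46 without treated OIR mouse 10 and 1.07 without OIR mouse 3, and 0 of the 10 genes had an unadjusted p below 0.05 with DESeq2 on the 2 groups, with edgeR on the 2 groups, or with limma-voom.

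Sema6a (ENSMUSG00000019647, chromosome 18, 47235598 to 47368870, minus strand) had 43.0, 51.9, and 60.0 CPM in control mice and 41.6, 39.0, and 31.0 CPM in OIR mice. The groups were separated by a narrow gap between control mouse 1 and OIR mouse 3, and the log2 fold change was -0.47 (-1.10 to 0.16, edgeR adjusted p = 0.335). Treated OIR mice had 25.4, 46.1, and 61.2 CPM, in the same order of mice as for Plxna1 and overlapping both other groups. Treated OIR exceeded OIR mice by 0.25 (-0.38 to 0.89), a value of 0.56 without treated OIR mouse 2 and -0.06 without treated OIR mouse 10.

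Sema3f (ENSMUSG00000034684, chromosome 9, 107681500 to 107710475, minus strand), a secreted ligand that prefers Nrp2, was by far the most abundant of the 10. It had 192, 198, and 207 CPM in control mice, 217, 255, and 211 CPM in OIR mice, and 188, 228, and 199.7 CPM in treated OIR mice. The OIR mice lay just above the controls without overlap, and the treated OIR mice overlapped both. The log2 fold change was 0.20 in OIR compared with control mice (-0.06 to 0.45, edgeR adjusted p = 0.318) and 0.05 in treated OIR compared with control mice (-0.21 to 0.30).

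Sema3e (ENSMUSG00000063531, chromosome 5, 14025276 to 14256689, plus strand), the ligand of Plxnd1, did not follow its receptor. It had 19.3, 22.3, and 16.4 CPM in control mice, 18.3, 16.2, and 21.7 CPM in OIR mice, and 12.3, 20.3, and 17.1 CPM in treated OIR mice. All groups overlapped. The log2 fold change was -0.05 in OIR compared with control mice (-0.52 to 0.42) and -0.22 in treated OIR compared with control mice (-0.70 to 0.25), beside 1.11 and 1.19 for Plxnd1. Without treated OIR mouse 2 the second pair was -0.04 for Sema3e and 1.15 for Plxnd1. The interval for OIR mice ends below the lower bound of the Plxnd1 interval (0.54), a comparison between genes of the same mice that was not tested.

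Sema3g (ENSMUSG00000021904, chromosome 14, 31217860 to 31230352, plus strand), a class 3 semaphorin of vessel walls, differed more within the OIR group than between groups. It had 4.78, 8.03, and 7.61 CPM in control mice and 3.30, 5.58, and 8.12 CPM in treated OIR mice. In OIR mice 3 and 5 it had 6.63 and 6.90 CPM, but OIR mouse 6 had 0.675 CPM, from 15 counts. The log2 fold change between OIR and control mice was -0.52 (-2.05 to 1.01), and without OIR mouse 6 it was -0.01. In treated OIR compared with OIR mice Sema3g gave 0.27 (-1.27 to 1.80), but -0.25 without OIR mouse 6 and -0.09 without treated OIR mouse 10. The summed CPM of 8 endothelial markers was also lowest in OIR mouse 6 (81.2) and next lowest in treated OIR mouse 2 (94.5), the mice with the 2 lowest Sema3g values. Summed markers of pericytes, pigment epithelium, rods, cones, and ganglion and amacrine cells (retinal neurons) were also lowest in these 2 mice. This match was therefore not particular to endothelial markers. The part of endothelial or other cell content in the Sema3g values was not tested.

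**Figure D2:**
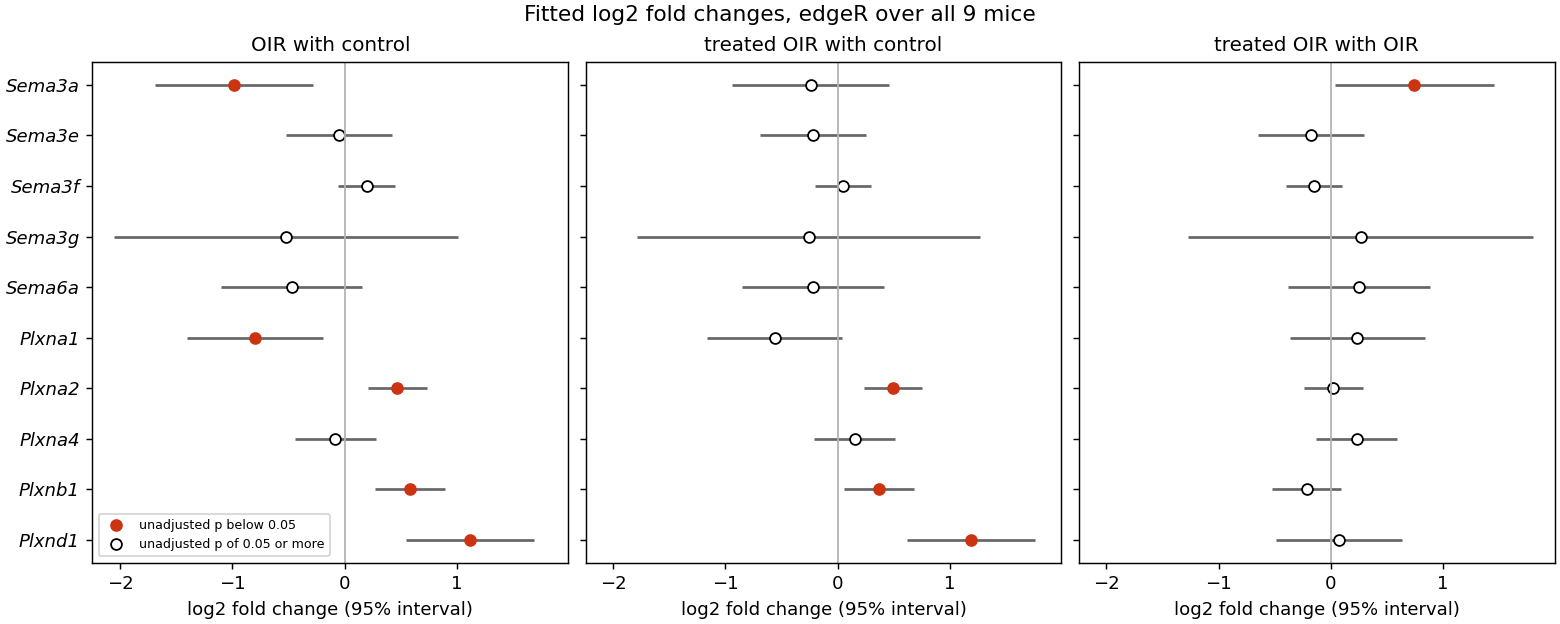
Fitted log2 fold change (x axis) of each gene (y axis) in the 3 comparisons, with 95% intervals from the edgeR fit of all 9 mice. Red dots mark an unadjusted p below 0.05, which 5, 3, and 1 of the 10 genes reached, beside 23.8%, 18.6%, and 4.69% of all genes tested. None of the 10 passed an adjusted p below 0.05. The first 2 panels share the control mice.

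The counts are to be read against all genes tested. Between OIR and control mice, 0 of the 10 genes passed an adjusted p below 0.05, as did 0.941% of 17540 genes, and the 5 of 10 with an unadjusted p below 0.05 stand beside 23.8% of all genes. The groups did not overlap for 7 of the 10 genes, 4 higher and 3 lower, beside 33.0% of all genes (15.9% higher and 17.2% lower). The median log2 fold change of the 10 was -0.06, beside 0.03 over all genes. It was 0.47 over the 5 plexins, of which 3 were above 0, and -0.47 over the 5 semaphorins, of which 4 were below 0. Between treated OIR and control mice, 0 of the 10 passed the adjusted threshold (0.0228% of all genes), 3 had an unadjusted p below 0.05 (18.6% of all genes), and 3 did not overlap (25.0% of all genes), all of them higher (12.8%). Between treated OIR and OIR mice, 0 of the 10 passed the adjusted threshold, as did 0 of all genes, and the groups overlapped for all 10 genes, whereas 9.13% of all genes did not overlap.

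Which genes passed differed between fits, and the cause was not tested. Without treated OIR mouse 2, 4 plexins passed between OIR and control mice, with edgeR adjusted p of 0.0104 for Plxna1, 0.0131 for Plxna2, 0.0249 for Plxnb1, and 0.0257 for Plxnd1, and 12.5% of all genes passed in that fit. The same 4 genes passed with edgeR fitted to control and OIR mice alone (10.3% of all genes) and with limma-voom (13.1% of all genes), 2 of them, Plxnb1 and Plxnd1, passed without a filter (1.75% of all genes), and Sema3a passed beside all 4 with DESeq2 on all 9 mice (11.4%) and on the 2 groups (15.6%). Over all 15 alternatives the log2 fold change lay between 0.41 and 0.50 for Plxna2, 0.46 and 0.71 for Plxnb1, -0.91 and -0.71 for Plxna1, and 0.87 and 1.48 for Plxnd1. In treated OIR compared with control mice, Plxnd1 passed with DESeq2 on all 9 mice (4.70% of all genes), DESeq2 on the 2 groups (2.18%), and limma-voom (5.28%), and Plxna2 with the first and last of these.

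Leaving out treated OIR mouse 2 moved the treated OIR values of some genes more than others. Against control mice, the 3 higher receptors of treated OIR mice kept their direction, at log2 fold changes of 1.15 for Plxnd1, 0.37 for Plxna2, and 0.34 for Plxnb1 (edgeR adjusted p = 0.163, 0.191, and 0.342). Plxna1 was then at -0.28, Plxna4 at 0.08, Sema3a at -0.18, Sema3e at -0.04, Sema3f at 0.11, Sema3g at 0.03, and Sema6a at 0.07, so that Sema3g and Sema6a turned from below to above 0. Against OIR mice the value was 0.83 for Sema3a, 0.56 for Sema6a, and 0.54 for Plxna1, the 3 genes that then had an unadjusted p below 0.05 (edgeR adjusted p = 0.350, 0.243, and 0.239). The share of all genes at that unadjusted p in this fit is not given here, and 0 of all genes passed the adjusted threshold in it. Sema3a, Sema6a, and Plxna1 are also the 3 genes that lay below the controls in OIR mice. Both comparisons rest on the same OIR mice, so low values in those mice enter both, and the match is not separate evidence. The other 7 genes, in treated OIR compared with OIR mice, lay between -0.22 (Plxnb1) and 0.57 (Sema3g).

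Levels per gene length put the receptors and ligands in order. In control mice Sema3f was highest at 38.2 ± 1.45 CPM per kilobase (SD, n = 3), followed by Plxnb1 at 9.08 ± 1.33, and their ranges did not overlap. Plxna1, Sema6a, Plxna2, and Plxnd1 followed at 7.05, 5.88, 5.59, and 3.97 CPM per kilobase, each overlapping its neighbour in this order. Sema3e came next at 2.08 ± 0.318, above Sema3g and Plxna4, which did not differ beyond their spread (both 1.499), and Sema3a was lowest at 0.641 ± 0.0816.

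In OIR mice the order of these levels differed in the middle. Plxnd1 moved to the third place at 8.64 ± 0.928 CPM per kilobase and Plxna2 to the fourth at 7.74 ± 0.0824, with no overlap between them, and both lay above Sema6a (4.23) and Plxna1 (4.05). The ends of the order were the same, with Sema3f at 43.8 ± 4.64 and Sema3a at 0.324 ± 0.117 CPM per kilobase. Treated OIR mice had the same order of means as OIR mice, with Plxnd1 at 9.09 ± 0.584 and Plxna2 at 7.86 ± 1.18 CPM per kilobase, which then overlapped. These levels rest on the gene lengths in the deposited table.

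**Figure D3:**
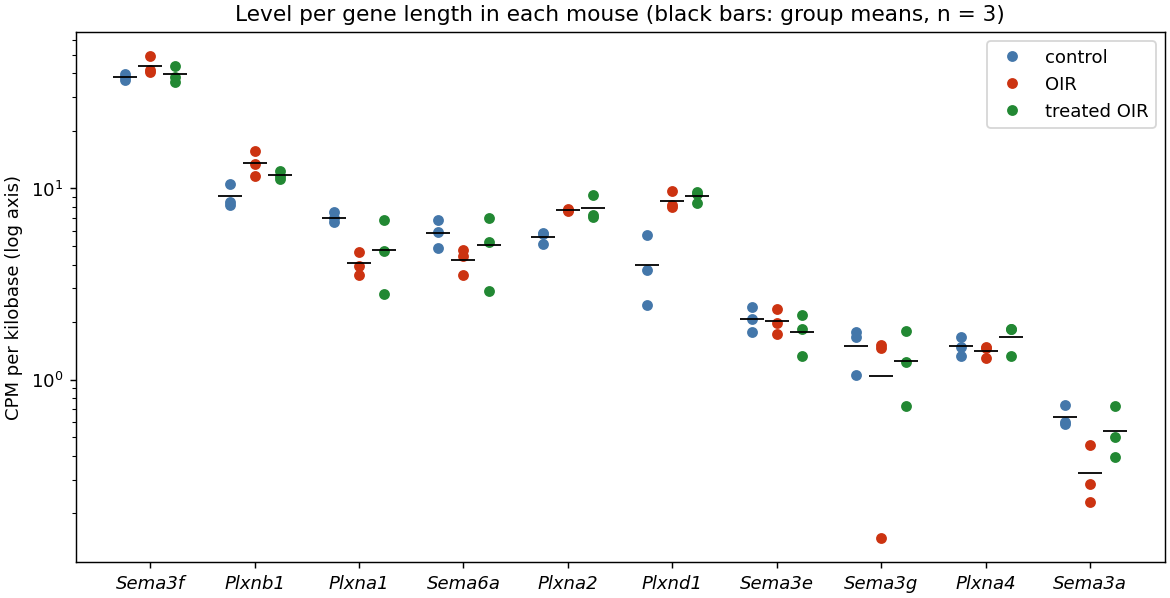
Level per gene length in CPM per kilobase (y axis, log scale) for the 10 genes (x axis, ordered by the control mean), with 1 dot per mouse in the colour of its group and group means as black bars (n = 3). Sema3f lies highest and Sema3a lowest in mean in each group, and Plxnd1 moves above Plxna1 and Sema6a in both OIR groups.

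Retinal cell types were followed by marker genes, since several of these genes are made by few cells. The 8 endothelial markers summed to 143 to 168 CPM in control, 81.2 to 241 CPM in OIR, and 94.5 to 307 CPM in treated OIR mice. Between OIR and control mice 0 of the 8 had an unadjusted p below 0.05 (23.8% of all genes). In treated OIR compared with control mice 2 did (18.6% of all genes), both higher. Among OIR mice, mouse 6 had the lowest endothelial sum and the highest Plxnd1 value. For each 100 CPM of endothelial markers, Plxnd1 had 27.3, 19.0, and 10.6 CPM in control mice and 24.8, 37.3, and 87.2 CPM in OIR mice. In treated OIR mice 5 and 10 this ratio was 22.1 and 22.6, and in mouse 2 it was 73.7. The ratios of treated OIR mice 5 and 10 and of OIR mouse 3 lay within the control range. Treated OIR mice 5 and 10 had the highest endothelial sums, at 307 and 272 CPM, beside 68.0 and 61.6 CPM of Plxnd1. The highest ratios were in OIR mouse 6 and treated OIR mouse 2. In these mice the sums of pericyte, ganglion cell, amacrine, rod, and cone markers were also the lowest. The part of endothelial or other cell content in the Plxnd1 values was not tested.

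Of the inner retinal neurons, the markers of ganglion cells and amacrine cells were lower in OIR mice. Retinal ganglion cells are the output neurons of the retina. Their 9 markers summed to 1362 to 1974 CPM in control and 132 to 667 CPM in OIR mice. All 9 lay below the control mice without overlap, as did 17.2% of all genes. Of the 9, 3 had an unadjusted p below 0.05, beside 12.7% of all genes with that p and lower. Amacrine cells are interneurons of the inner retina. Their 8 markers summed to 758 to 1029 CPM in control and 230.1 to 449 CPM in OIR mice. All 8 lay below without overlap (17.2% of all genes), and 6 had an unadjusted p below 0.05 (12.7% of all genes). None of these 17 markers passed an adjusted p below 0.05 in edgeR over all 9 mice, as 0.941% of all genes did.

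In treated OIR mice 2, 5, and 10 the amacrine sum was 193, 511, and 767 CPM, and Plxna1 and Sema6a had the same order of mice. The same holds in OIR mice, where the amacrine sum was 449, 393, and 230.1 CPM in mice 3, 5, and 6. In control mice 1, 6, and 7, with amacrine sums of 758, 965, and 1029 CPM, Sema6a had this order but Plxna1 did not, since it was highest in mouse 6. The ganglion cell sum was 60.6, 1094, and 1145 CPM in treated OIR mice 2, 5, and 10, whereas Sema3a in treated OIR mouse 2 was above mouse 5. The order of Plxna1 and Sema6a was not particular to amacrine markers. Ganglion cell, pericyte, and pigment epithelium sums also rose from treated OIR mouse 2 to 5 to 10. All of these sums fell from OIR mouse 3 to 5 to 6, for ganglion cells at 667, 402, and 132 CPM. In control mice the ganglion cell sum also had the order of Sema6a. These pairs of genes and markers were set side by side after their values were seen, and the part of neuron content in the values of Plxna1, Sema6a, and Sema3a was not tested. Bipolar markers, of neurons that link photoreceptors to ganglion cells, went the other way, at 1145 to 1330 CPM in control and 1564 to 1652 CPM in OIR mice. All 6 had a log2 fold change above 0 in OIR compared with control mice. Of these, Otx2 passed (0.49, edgeR adjusted p = 0.0485), as did 0.941% of all genes. Of 5 markers of horizontal cells, also inner retinal neurons, 4 were above 0 and 3 were higher without overlap (15.9% of all genes).

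**Figure D4:**
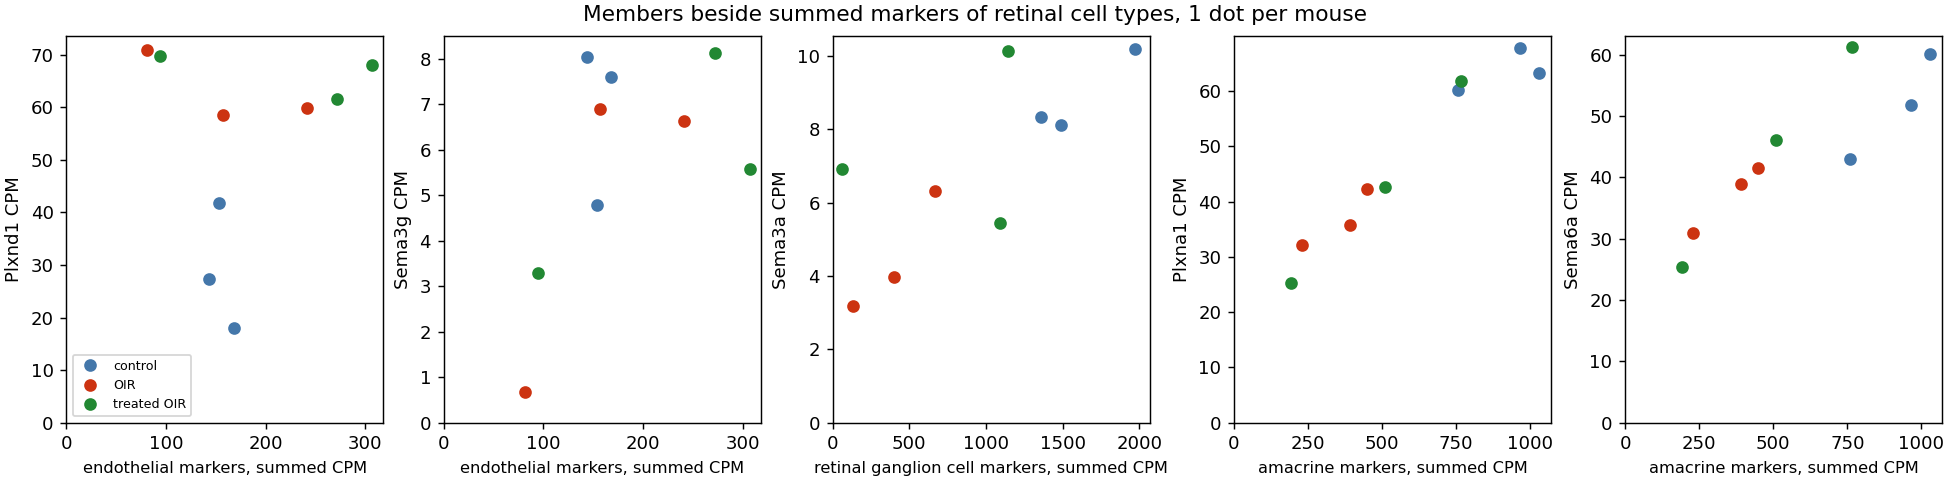
CPM of 5 of the genes (y axes) beside the summed CPM of markers of a retinal cell type (x axes), with 1 dot per mouse in the colour of its group. Plxnd1 is high in both OIR groups over the whole range of endothelial sums, and Plxna1 and Sema6a are lowest in the mice with the lowest amacrine sums.

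The patterns most like those of the 5 genes with an unadjusted p below 0.05 were looked for by Pearson correlation of log2 CPM over the 9 mice, among 11083 or 11084 genes with a mean log2 CPM of at least 3. For Plxnd1 they were Hps5 (0.98), Iqcg (0.97), and Atl3 (0.97), and for Plxna2 they were E2f5 (0.99), Intu (0.98), and Fermt2 (0.98). Plxnb1 was most like Brwd1 (0.97), Zfp142 (0.97), and Taf1 (0.97). Plxna1 was most like Sgsm1, Tfap2c, and Grik2 (each 0.99), of which Tfap2c is a transcription factor gene and Grik2 a glutamate receptor gene. Sema3a was most like Grm4 (0.94), Prdm13 (0.93), and Mark1 (0.93), where Prdm13 is a transcription factor of amacrine cell development. These values describe the same 9 mice, include the differences between groups, and were picked as the highest of many.

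The other genes of the pathway numbered 43, of which 42 were tested and Plxnb3 was too low. Between OIR and control mice, none passed an adjusted p below 0.05 in edgeR, 5 had an unadjusted p below 0.05 and were higher (11.1% of all genes), and 12 were lower (12.7% of all genes). Nrp1, the co-receptor for Sema3a, had 15.6, 14.5, and 11.5 CPM in control mice and 19.0, 15.5, and 22.5 CPM in OIR mice, which overlapped, with a log2 fold change of 0.45 (0.03 to 0.87, edgeR adjusted p = 0.184). Nrp2, the co-receptor for Sema3f, had a log2 fold change of -0.34 (-0.97 to 0.28). Its highest value was in control mouse 1 (33.7 CPM), and the fold change was -0.07 without that mouse and -0.51 without control mouse 7. Nrp1 in treated OIR compared with OIR mice differed by -0.21 (-0.63 to 0.21) and Nrp2 by -0.05 (-0.67 to 0.58).

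Of the 15 other semaphorins, 1 was higher (11.1% of all genes) and 4 were lower (12.7% of all genes) with an unadjusted p below 0.05 in OIR compared with control mice. Sema6b, a transmembrane relative of Sema6a, had 63.5, 68.0, and 74.7 CPM in control and 28.9, 25.3, and 18.4 CPM in OIR mice. Its log2 fold change of -1.505 (-2.19 to -0.82, edgeR adjusted p = 0.0562) was larger in size than that of any of the 10 genes, and the treated OIR mice, at 15.4, 37.0, and 35.7 CPM, were also all below the controls (log2 fold change -1.22, edgeR adjusted p = 0.126). Sema5b, a transmembrane semaphorin of inner retinal wiring, was higher, at 33.0, 32.8, and 39.5 CPM in OIR mice against 16.0, 24.7, and 19.1 CPM in control mice (log2 fold change 0.82, edgeR adjusted p = 0.0874), and treated OIR mice had 49.9, 30.3, and 32.6 CPM. In treated OIR compared with control mice Sema6d had a log2 fold change of 0.76 and Sema6c of -0.68 (edgeR adjusted p = 0.228 and 0.147). The 3 other plexins tested overlapped between OIR and control mice, and Plxnb2, outside the rule for named genes, was the 1 with an unadjusted p below 0.05 (log2 fold change 0.43).

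Of the 22 genes that carry plexin signals inside the cell, 14 had a log2 fold change below 0 in OIR mice, with a median of -0.07. With an unadjusted p below 0.05, 2 were higher (11.1% of all genes) and 8 were lower (12.7% of all genes). Dpysl2, which encodes the collapsin response mediator CRMP2 of the Sema3a pathway, had 203, 179.9, and 247 CPM in control and 119.9, 114, and 100.5 CPM in OIR mice, which is -0.91 as a log2 fold change (-1.36 to -0.47, edgeR adjusted p = 0.0605). Rnd1, a small GTPase that binds plexins, had a log2 fold change of -0.94 (edgeR adjusted p = 0.0758). Rras, a GTPase that plexins inactivate, had one of 0.79 and Dpysl3 one of 0.30 (edgeR adjusted p = 0.192 and 0.190). In treated OIR mice compared with the same controls the values were -0.64 for Dpysl2 and 0.92 for Rras (edgeR adjusted p = 0.171 and 0.212), and that of Rras was 0.37 without treated OIR mouse 2. Over the 42 genes tested, 11 had an unadjusted p below 0.05 in this comparison (18.6% of all genes), of which 4 were higher and 7 were lower.

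Of the 42 genes, 1 had an unadjusted p below 0.05 between treated OIR and OIR mice, where 4.69% of all genes did. This was Fes, a kinase of the Sema3a pathway, at a log2 fold change of -0.59 (-1.16 to -0.01, edgeR adjusted p = 0.9998). The next smallest p among lower genes were those of Sema4b (-0.28) and Plxnc1 (-0.30), and among higher genes those of Fyn (0.24), Sema3c (0.62), and Rac1 (0.19), none with an unadjusted p below 0.05. Their intervals reached from -0.78 for Plxnc1 to 1.41 for Sema3c.

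Without treated OIR mouse 2, the pathway genes named in treated OIR compared with control mice kept their direction, with log2 fold changes of -0.91 for Sema6b, 0.67 for Sema5b, 1.002 for Sema6d, -0.52 for Sema6c, and -0.44 for Dpysl2. Nrp1 was at 0.31 and Nrp2 at -0.18. Against OIR mice, Fes in treated OIR mice was at -0.64, Sema4b at -0.39, Plxnc1 at -0.05, Fyn at 0.36, Sema3c at 0.97, and Rac1 at 0.12, whereas Nrp2 turned from -0.05 to 0.19 and Nrp1 was at -0.11.

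**Figure D5:**
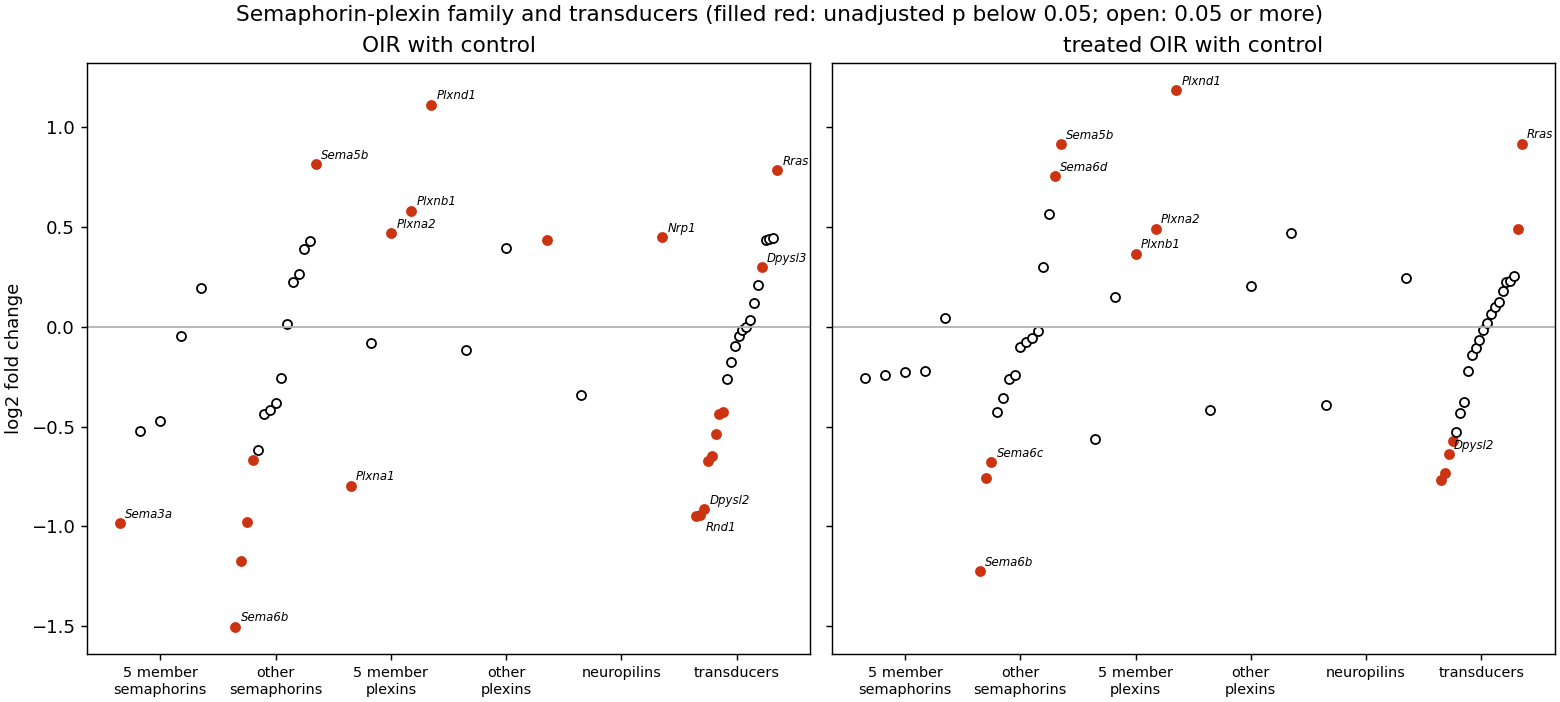
Log2 fold change (y axis) of the 10 genes, other semaphorins, other plexins, neuropilins, and intracellular transducers (x axis, 1 dot per gene) in the 2 OIR groups (left without and right with 32-134D), each compared with the same control mice. Filled red dots mark an unadjusted p below 0.05, with the genes of the text named. Plxnd1 is the highest dot in both panels and Sema6b the lowest.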

How the data were processed

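Retinal RNA of 9 mice, 3 per group, was sequenced, and groups were taken from the treatment labels. The authors deposited raw counts as 1 table, in which every gene has a whole-number value for each mouse and a length in bases. The submitters' processing notes name CASAVA and HISAT. The counter, annotation, and strand setting are not given in the sources used here. Gene positions were compared with GENCODE M21, where 98.3% of the identifiers held in common were placed identically, and coordinates are on GRCm38.

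The test was edgeR 4.0.16 (R 4.3.3) with TMM factors, its default filter by group (17540 of 54532 genes kept), and 1 mean per group over all 9 mice. Benjamini-Hochberg adjustment was over all genes tested. Intervals (95%) come from the standard errors and degrees of freedom of that fit. Log2 CPM used a prior count of 2. With totals of 16028731 to 27213184 counts, precision is limited by the spread among mice within groups. The edgeR p-values set differences against that spread, estimated for each gene over all 9 mice with information shared between genes. Treated OIR mice therefore enter the p-values of OIR compared with control mice.

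The members, lists, and tests were chosen with earlier results of these data known. Named genes are the 10 members, Nrp1 and Nrp2, and in each comparison the 3 other family genes with the smallest p in each direction at a mean log2 CPM of at least 1. Alternatives were DESeq2 1.42.0 (all 9 mice, or 2 groups), edgeR on 2 groups, DESeq2's size factors, no filter, limma 3.58.1 (voom, quality weights), and leaving out each mouse. The fits were tested on simulated counts. Figures used Python 3.11.15 and matplotlib 3.10.9.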

Additional observations from a re-analysis of the deposited data

How the results depend on the processing

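No paired analysis was run, because the labels give no pairing. The groups compared share at most 1 mouse number, and the labels do not say what an equal number in 2 groups means. The count of the 10 genes that passed an adjusted p below 0.05 between OIR and control mice was 0 in edgeR over all 9 mice, 2 without a filter (Plxnb1 and Plxnd1), 4 with edgeR on the 2 groups and with limma-voom, 5 with DESeq2 on all 9 mice and on the 2 groups, and 0 to 4 when each mouse was left out, the 4 coming without treated OIR mouse 2. Between treated OIR and control mice it was 0, but 2 with DESeq2 on all 9 mice and with limma-voom and 1 with DESeq2 on the 2 groups, and 0 when each mouse was left out. Between treated OIR and OIR mice it was 0 in every alternative. The count with an unadjusted p below 0.05 between treated OIR and OIR mice was 1, but 0 with DESeq2 or edgeR on the 2 groups and with limma-voom, and 0 to 3 when each mouse was left out, with 3 without treated OIR mouse 2, 2 without treated OIR mouse 5, and 0 without any 1 of the control mice, OIR mouse 5, OIR mouse 6, or treated OIR mouse 10. With each mouse left out, that count was 4 to 6 between OIR and control mice and 2 to 4 between treated OIR and control mice. The shares of all genes at that unadjusted p in the alternative fits are not given here.

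Directions turned for small values or where 1 mouse decided them. With limma-voom, Plxna4 in treated OIR compared with control mice was -0.086, and in treated OIR compared with OIR mice Sema3e was 0.033, Plxna2 -0.092, and Nrp2 0.0069. With each mouse left out, log2 fold changes that changed sign ranged from -0.166 to 0.068 for Sema3e and -0.162 to 0.0072 for Plxna4 in OIR compared with control mice. In treated OIR compared with control mice they ranged from -0.034 to 0.113 for Sema3f, -0.612 to 0.026 for Sema3g, and -0.527 to 0.068 for Sema6a. In treated OIR compared with OIR mice they ranged from -0.349 to 0.024 for Sema3e, -0.253 to 0.644 for Sema3g, -0.055 to 0.558 for Sema6a, -0.113 to 0.536 for Plxna1, -0.078 to 0.093 for Plxna2, and -0.352 to 0.194 for Nrp2. The cause was not tested.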
